A study of Homo sapiens with 12 samples.

Results

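These data are the array comparison of Ls174T cells, a human colorectal cancer line of mucinous type with constitutively active Wnt signaling, after siRNA against MLLT10/AF10 and after a control siRNA. They are 2 of the 12 arrays of the series, chosen by cell line and siRNA in the sample labels. The whole series used dual-color Agilent arrays to follow gene expression in Ls174T and HEK293T cells after siRNA against β-catenin, MLLT10/AF10, DOT1L, BRG1, or p300, and asked whether MLLT10/AF10 acts on the Wnt gene program. The HEK293T arrays used below hold cells given 15 nM siRNA for 72 h and Wnt3A medium for 9 h before RNA extraction. Their siRNA was si-control, si-MLLT10 or si-DOT1L. Ls174T arrays with siRNA against β-catenin, BRG1 or p300 are also used below, likewise with 15 nM for 72 h. The si-control and si-MLLT10 cultures of Ls174T cells were transfected with 15 nM siRNA for 72 h. Both siRNAs were pools, with no other difference between the groups given in the labels. Each group is 1 culture on 1 array (si-control and si-MLLT10), and no second siRNA pool against MLLT10 is on the arrays. Each array carried the Ls174T RNA in Cy3 and universal human reference RNA, a mixture from many cell lines, in Cy5.

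MLLT10/AF10 is a PHD finger protein first known from leukemia fusions. It binds DOT1L, the enzyme that methylates lysine 79 of histone H3 in the body of transcribed genes. In the intestinal crypt, β-catenin bound to TCF4 keeps progenitor genes on, and cells that leave the crypt lose that input and turn on enterocyte and goblet cell genes.

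A level here is the log2 ratio of sample to reference on 1 array, and a change is that level with si-MLLT10 minus that with si-control. With 1 array per group no test between the conditions exists and no p-value is given. A gene is called higher or lower where its change passes 1.5-fold, and the error printed beside a change is that of the scanner program, combined over both arrays, which leaves out the spread between cultures. A feature is 1 spot, a probe is 1 designed sequence printed in 1 or more spots, and "well above background" is the program's own flag. Both arrays lay on 1 slide.

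The cells matched their label by the colon epithelial marker list. All 16 of its 16 genes were well above background on both arrays, with a summed Cy3 signal of 539599 units with si-control and 644893 units with si-MLLT10. Of the 7 HEK293T marker genes on the array, 4 were well above background on each array, with a summed signal of 971 and 855 units, and NEFL, NEFM and SALL1 were not. Fibroblast markers (6 of 9 genes, summed signal 1480 and 1460 units, with COL3A1, LUM and PDGFRA not well above background) and endothelial markers (3 of 8 genes, 322 and 268 units, with PECAM1, CDH5, KDR, TEK and TIE1 not) were dim. Leukocyte markers (6 and then 8 of 10 genes, 1388 and 1507 units) lacked PTPRC and NKG7 on both arrays. The part of these dim signals in any result was not tested.

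MLLT10 itself was lower by both of its probes. The probe that was well above background on both arrays gave a log2 ratio of −0.34 with si-control and −1.76 with si-MLLT10, a change of −1.42 (program error 0.33). Its Cy3 signal went from 1648 to 568 units, while the reference channel of the same spot differed by −0.07 between the arrays. The second probe went from 85.3 to 30.5 units and was not well above background with si-MLLT10, which makes it at least 1.55-fold lower. The same siRNA pool gave −1.76 at the first probe in Wnt3A-treated HEK293T cells. By the ratio, the transcripts of the other siRNA targets of the series stayed within 1.5-fold. The 3 probes of DOT1L, the partner enzyme, gave 0.08, −0.02 and 0.10, CTNNB1, which encodes β-catenin, gave 0.03 (SD over 10 spots 0.02) and 0.06, SMARCA4, which encodes BRG1, gave between −0.06 and 0.06, and EP300, which encodes p300, gave −0.19 and −0.14 (SD over 10 spots 0.22). The third DOT1L probe was weaker in both channels on the si-MLLT10 array, by −0.95 in the sample channel alone (225 and 113 units) and −1.05 in the reference channel, which the ratio cancels.

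Few other features passed 1.5-fold. Of 27369 features kept, 587 (2.14%) were higher and 651 (2.38%) lower past 1.5-fold, and 206 (0.753%) and 269 (0.983%) past 2-fold. With normexp background correction and loess in place of the program's processing, 55 were higher and 53 lower past 1.5-fold. Most of these were dim, since 984 of the 1238 past 1.5-fold (79.5%) missed that flag in at least 1 channel of 1 array, against 10.9% of all features kept. Among the 24375 features that were, 147 (0.603%) were higher and 107 (0.439%) lower, and 20 and 7 passed 2-fold.

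The reference RNA, which was the same on both arrays, gives the technical spread of the Cy5 channel of this pair. That channel was the brighter one, at a median of 3.83 (si-control) and 3.18 (si-MLLT10) times the local background. The sample channel stood at 2.27 and 2.30 times, so the reference spread need not hold for it. The part of brightness and dye in the wider sample spread was not tested. Over the same 24375 features, the reference channel differed between the arrays with an SD of 0.10 (log2), and 15 features (0.0615%) were higher and 37 (0.152%) lower past 1.5-fold. The sample channel alone had an SD of 0.19, with 189 features (0.775%) higher and 156 (0.64%) lower. The ratio had an SD of 0.18. The sample channel thus differed more than the reference channel, and how much of that difference would return in a second pair of cultures cannot be told from 1 culture each. The 210 probes with at least 5 usable spots had a median SD between spots of 0.04, the highest being 0.43, while the program's own error of a change had a median of 0.31. Past 1.5-fold and past 2 times the program error, 157 features were higher and 205 lower among all kept.

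**Figure D1:**
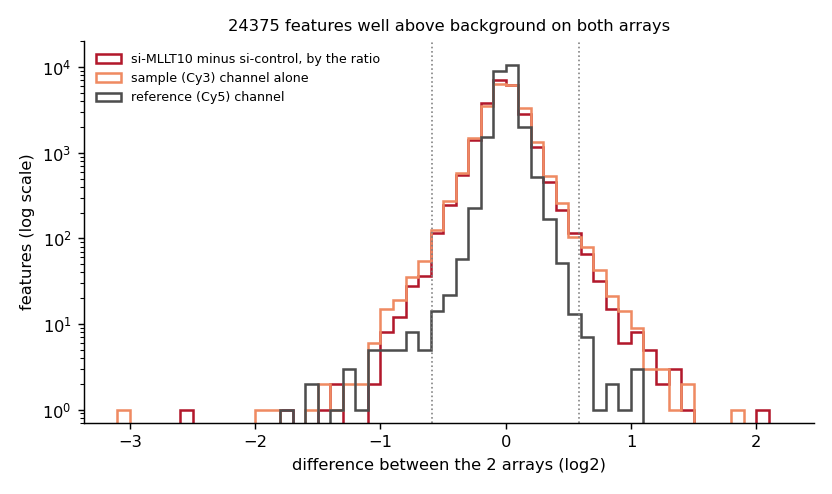
Histogram of the difference between the si-MLLT10 and the si-control array (x axis, log2) for 24375 features well above background, with the number of features on a log scale (y axis). The red line is the ratio, the orange line the sample channel alone and the dark line the reference channel, and dotted lines mark 1.5-fold. The ratio passes 1.5-fold for 147 features to the right and 107 to the left, the reference channel for 15 and 37.

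The genes described next are the 15 largest rises and 15 largest falls among genes well above background in both channels, past 1.5-fold by the ratio and by the sample channel alone. In all, 91 genes met this rule as higher and 39 as lower. Before the values, 4 promoters are printed, since those of the higher and lower genes differed in base composition. Each is the 250 bases before the RefSeq start site (GRCh38.p14), written 5′ to 3′ on the strand of the gene, with EMP1 at chr12:13196476-13196725 (plus strand), UGT2B7 at chr4:69096224-69096473 (plus), SLC4A7 at chr3:27484385-27484634 (minus) and CDK6 at chr7:92836574-92836823 (minus). EMP1 and UGT2B7 stand for the higher genes because they hold the TCF/LEF core CTTTGA, and SLC4A7 and CDK6 for the lower genes because they were the most reduced genes besides KIF1B and MLLT10, a choice made after values and motifs were seen. Capitals mark each match to the TCF/LEF core CTTTGA, the AP-1 site TGANTCA or the GC box GGGCGG, on either strand.
EMP1: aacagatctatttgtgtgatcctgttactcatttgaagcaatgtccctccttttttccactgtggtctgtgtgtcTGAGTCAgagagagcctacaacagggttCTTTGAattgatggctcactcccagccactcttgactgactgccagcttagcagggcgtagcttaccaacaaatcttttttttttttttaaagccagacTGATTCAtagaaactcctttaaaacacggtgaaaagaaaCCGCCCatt
UGT2B7: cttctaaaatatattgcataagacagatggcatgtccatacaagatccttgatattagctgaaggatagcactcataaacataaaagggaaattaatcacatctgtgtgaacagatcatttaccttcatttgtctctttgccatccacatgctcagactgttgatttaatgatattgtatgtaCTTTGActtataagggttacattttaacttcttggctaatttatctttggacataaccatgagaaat
SLC4A7: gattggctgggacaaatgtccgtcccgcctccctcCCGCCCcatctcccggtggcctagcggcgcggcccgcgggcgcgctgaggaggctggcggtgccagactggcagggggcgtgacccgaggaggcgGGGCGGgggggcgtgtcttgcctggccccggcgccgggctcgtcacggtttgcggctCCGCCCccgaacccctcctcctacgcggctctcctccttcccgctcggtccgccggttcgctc
CDK6: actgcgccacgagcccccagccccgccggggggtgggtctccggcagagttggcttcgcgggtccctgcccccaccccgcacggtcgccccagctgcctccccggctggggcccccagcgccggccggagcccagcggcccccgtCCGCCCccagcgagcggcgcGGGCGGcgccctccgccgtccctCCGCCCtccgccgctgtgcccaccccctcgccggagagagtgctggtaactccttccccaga

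EMP1 held 1 TCF/LEF core, 2 AP-1 sites and 1 GC box in these bases, UGT2B7 held 1 TCF/LEF core, and SLC4A7 and CDK6 held 3 GC boxes each. Over windows that reach from 250 bases before to 50 bases after the start, which RefSeq gave for 12 of the 15 higher and 14 of the 15 lower genes, the median GC content was 43.3% for the higher and 73.3% for the lower genes, against 58.7% for 35116 windows of all genes. A GC box stood in 4 of 12 windows of higher genes (33.3%) and 12 of 14 of lower genes (85.7%), against 45.0% of all windows. The 12 include MLLT10 itself, whose fall was set by its siRNA. The windows of all genes were not limited to genes measured in these cells, so the shares compare unlike sets. The TCF/LEF core stood in 3 of 12 higher windows (ANP32D, EMP1 and UGT2B7) and 0 of 14 lower ones, against 12.9% of all, and the AP-1 site in 3 (EMP1, GCNT3 and ODAM) and 1 (RGMB), against 7.71%. The antioxidant response core TGACNNNGC was in 2 and 0 windows (13.3% of all), the TATA box TATAAA in 2 and 2 (11.5%), and neither the HNF1 site (0.322%) nor the HNF4 core CAAAGTCCA (0.384%) was in any. The motifs were searched on both strands, and a match is a run of letters and not a measured binding site.

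GCNT3 and UGT2B7 were the 2 largest rises. GCNT3, which builds branched mucin sugars in the gut, had a log2 ratio of 0.47 with si-control and 1.85 with si-MLLT10, a change of 1.38 (program error 0.34), with a Cy3 signal of 567 and 1518 units. UGT2B7, a glucuronosyltransferase of liver and gut, went from −2.34 to −1.04, a change of 1.30 (0.37), with 182 and 474 units. UGT2B11, of the same family, changed by 0.93 (0.30). CYP3A5, a cytochrome P450 that oxidizes drugs and steroids, was dimmer, at 40.8 and 87.1 units, and changed by 1.22 (0.35). AKR1B10, an aldo-keto reductase that reduces aldehydes and retinal, changed by 1.03 (0.37) and by 1.00 at its second probe.

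FOXQ1 and EMP1 rose by similar amounts, each by 1 probe. FOXQ1, a forkhead transcription factor, went from 0.37 to 1.57, a change of 1.19 (0.32), with 1912 and 4179 units, but its second probe, which was the brighter, gave −0.06. EMP1, an epithelial membrane protein, went from −4.86 to −3.67 (change 1.19, error 0.64), and its second, dim probe gave −0.09. For both genes the probes therefore disagree. GPRC5A, a retinoic acid-induced receptor, changed by 1.09 (0.35) and by 0.66 at its second probe. VILL, a villin-like actin-binding protein, changed by 1.00 (0.31) and ANXA1, a phospholipid-binding annexin, by 0.96 (0.48), the latter from 1905 to 3745 units. RCSD1, RFLNA, an actin-organizing refilin, and ODAM changed by 1.16, 1.11 and 1.07.

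ANP32A, an acidic nuclear phosphoprotein, was higher by 1.06 (0.51) and ANP32D by 0.96 (0.48). These 2 genes are close copies of each other and may share signal, so they are uncertain as separate genes. Of the 15 higher genes, 4 had a second probe well above background, and in 2 of them (GPRC5A and AKR1B10) it also passed 1.5-fold upward.

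The largest fall was that of 1 probe of KIF1B, a kinesin motor of organelle transport. It went from −0.76 to −3.35, a change of −2.59 (0.43), and from 344 to 41.5 units. The other 2 probes of KIF1B, both well above background, gave −0.01 and −0.05, so the fall was seen at 1 probe of 3. The same probe gave −2.41 after BRG1 and −2.16 after p300 depletion. Those comparisons use the same si-control array, with the si-BRG1 and si-p300 arrays on another slide. After MLLT10 depletion in HEK293T cells this probe gave −0.18, a comparison with its own si-control array, also on another slide.

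SLC4A7, a sodium bicarbonate cotransporter, was lower by 1 of its 3 probes. That probe went from −0.25 to −1.61, a change of −1.36 (0.33), with 432 and 159 units, and the others gave −0.16 and −0.01. CDK6, the cyclin D-dependent kinase of the G1 phase, was lower by both probes. The first went from 0.05 to −0.96, a change of −1.01 (0.35), with 112 and 47.2 units. The second, at 4642 and 2750 units, went from −1.26 to −1.99, a change of −0.74 (0.36).

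RGMB, a BMP co-receptor of the repulsive guidance molecule family, was lower, with a change of −0.87 (0.43), from 2.85 to 1.98 and from 1380 to 739 units. Its second probe gave −0.54. APH1A, a subunit of γ-secretase, which cleaves Notch receptors, gave −0.91 (0.30) and −0.88 at its 2 probes. CHST8, a sulfotransferase, PDLIM5, a PDZ and LIM domain scaffold, and SMG1, a kinase of nonsense-mediated decay, changed by −0.99, −0.98 and −0.97. The other probes of PDLIM5 gave between −0.16 and 0.09 and the 6 others of SMG1 between −0.38 and 0.07. Both calls thus rest on 1 probe.

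The remaining falls were dim. IRX5, a homeobox factor, and TRIM63, a muscle ubiquitin ligase, each changed by −0.96 (program errors 0.57 and 0.79). STOM and PDPN, both membrane proteins, changed by −0.89 (0.63 and 0.69). PRKACB, a catalytic subunit of protein kinase A, and SOHLH2 changed by −0.81 (0.37 each). The second probes of IRX5 and PDPN, not well above background, gave 0.65 and −0.85. The brighter second probes of STOM and PRKACB gave −0.10 and −0.06. Of the 15 lower genes, 9 had a further probe well above background, and in 2 of them (CDK6 and APH1A) it passed 1.5-fold downward. With normexp and loess, 12 of the 15 rises (not CYP3A5, RCSD1 and GPRC5A) but 5 of the 15 falls (KIF1B, MLLT10, SLC4A7, APH1A and RGMB) passed 1.5-fold, and none of the 30 turned its direction.

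**Figure D2:**
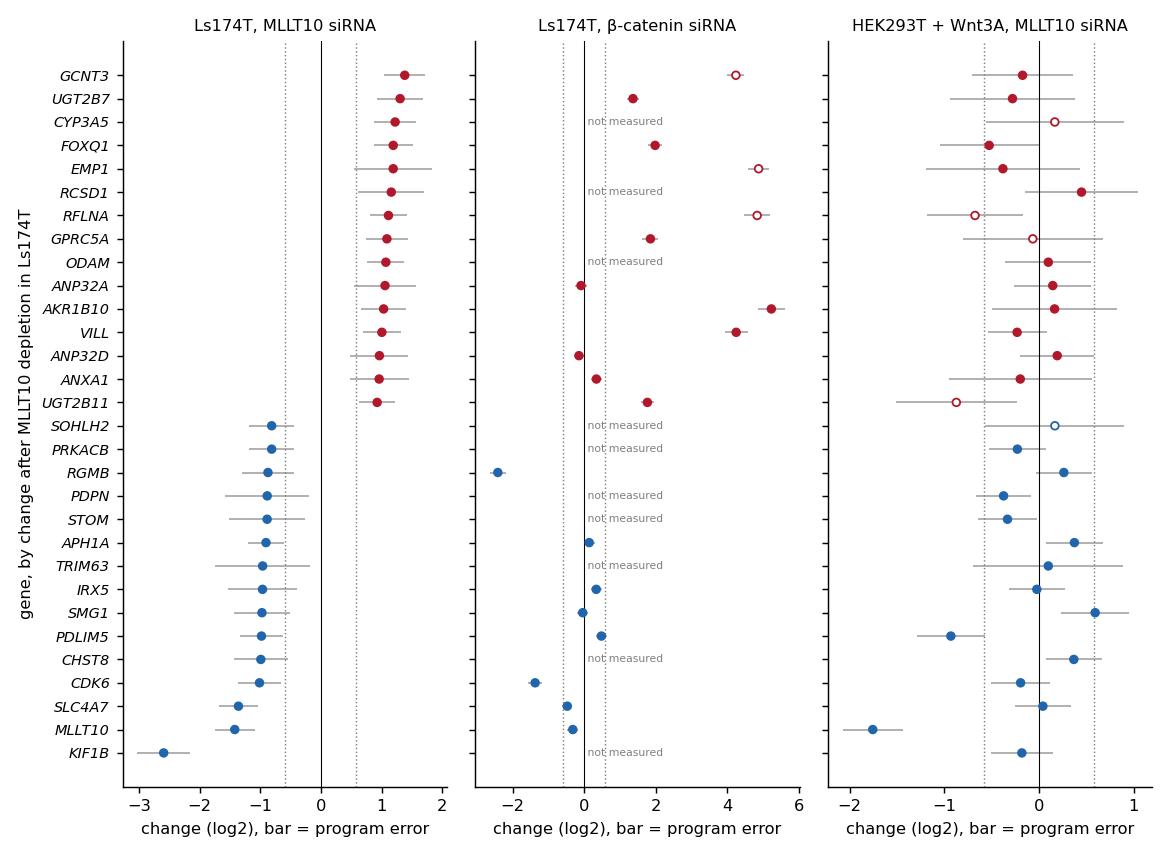
Changes (x axis, log2, bars give the program error) of the 15 largest rises (red) and 15 largest falls (blue), ordered on the y axis by the change in Ls174T cells after MLLT10 siRNA (left), and the same genes after β-catenin siRNA in Ls174T cells (middle) and after MLLT10 siRNA in Wnt3A-treated HEK293T cells (right). Dotted lines mark 1.5-fold, and open points were not well above background in that comparison. The left panel runs from −2.59 to 1.38, and in the middle panel 6 of the 9 rises with filled points lie above 2-fold, while in the right panel 2 of the 15 rises, both open, lie below 1.5-fold.

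Gene lists of pathways and cell types are counted in probes. Over all 25407 probes, 540 (2.13%) were higher and 613 (2.41%) lower, with a median change of −0.01, and 45.8% of the changes were above 0. Xenobiotic and aldo-keto reductase genes held 5 higher and 0 lower probes of 23, with a median of 0.14, and 18 of the 23 were above 0. Besides CYP3A5 and both probes of AKR1B10, these were AKR1C3, which reduces steroids and prostaglandins, from −0.85 to −0.22 (change 0.63, error 0.30, 5196 and 8049 units), and ALDH1A1, which makes retinoic acid, at 0.63 (0.43). The NRF2 target NQO1, by contrast, gave 0.03 and TXNRD1 gave −0.09, both named outside the rule for comparison.

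Interferon-stimulated genes had a median of 0.17, with 23 of 28 probes above 0 (82.1%), 2 higher and 1 lower. IFI6, an interferon-induced mitochondrial protein, was the higher probe well above background. It went from 0.10 to 0.76, a change of 0.67 (0.30), with 995 and 1797 units. IFI44L was higher and MX2 lower at probes not well above background with si-MLLT10. Below 1.5-fold, IRF9, a transcription factor of the interferon response, gave 0.56, the antiviral IFIT2, OASL and IFIT1 gave 0.50, 0.49 and 0.44, and the abundant ISG15 gave 0.16. A second siRNA pool was not on these arrays, and the part of the transfection itself was not tested.

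Goblet and secretory markers had a median of 0.13 over 24 probes, 2 of them higher and 0 lower. SPINK1, a trypsin inhibitor of mucous cells, went from 0.71 to 1.58, a change of 0.88 (0.33), with 424 and 814 units. TFF1, a trefoil peptide, gave 0.77 (0.62) and 0.43 at its 2 probes. The abundant TFF3 gave 0.15, 0.15 and −0.08, and MUC2, the main intestinal mucin, gave −0.14 and −0.21. Goblet markers therefore did not move as 1 block.

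Enterocyte markers held 2 higher and 0 lower of 15 probes (median 0.08, which turned to −0.14 when spots were counted singly). FABP1, the fatty acid-binding protein of absorptive cells, went from −3.72 to −3.05 (change 0.67, error 0.53, 1545 and 2514 units), and ANPEP, a brush border peptidase, was not well above background with si-control. KRT20, a keratin of differentiated colon cells, gave 0.42. The 28 probes of CEACAM, claudin and junction genes had a median of 0.01, with CDH17 and CEACAM1 higher. CEACAM1, a cell adhesion molecule, gave 0.68 (0.60) at 1 probe and 0.19 and 0.06 at its others. CDH17, the liver-intestine cadherin, gave 1.15 (1.15) by the ratio but 0.20 by the sample channel alone (684 and 764 units), its reference channel differing by −0.94 between the arrays, and −0.075 with normexp and loess.

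Paneth and enteroendocrine markers had a median of −0.11, with 2 of 10 probes higher and 1 lower. The median turned to 0.11 with normexp and loess and was −0.0024 by the sample channel alone. DEFA6, a Paneth cell defensin, gave 0.83 (0.86) and −0.31 (1.00) by the ratio at its 2 probes. Its sample channel, however, went from 606 to 1418 and from 552 to 1287 units, or 1.27 and 1.26 on the log2 scale. The 2 probes thus differ in the reference channel, where this gene is dim. CHGB and LYZ were not well above background with si-control.

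Wnt targets held 0 higher and 4 lower of 35 probes, with a median of −0.09. Besides RGMB, the lower probes were 1 of ASCL2, a crypt stem cell factor, at −1.20 (0.86), with a reference channel not well above background, −0.58 by the sample channel alone, which does not pass 1.5-fold, and a second, brighter probe at −0.29, SMOC2, a secreted matrix protein, at −0.63 (0.95), and 1 of LEF1, not well above background, whose other probe gave 0.51. SMOC2 fell further by the sample channel alone, at −1.54, from 51554 to 17157 units. Among the others, named outside the rule for their place in the pathway, AXIN2, a feedback inhibitor, gave 0.15 to 0.33 at 3 probes, MYC gave −0.28 (SD over 10 spots 0.03), LGR5, a stem cell receptor, gave −0.18, and the 3 probes of ETS2 gave −0.41, −0.35 and −0.25. After β-catenin depletion, the same list had a median of −1.25 over 25 probes. The Wnt machinery (receptors, destruction complex and nuclear partners) had 0 higher and 0 lower of 51 probes and a median of −0.02, with the co-receptor LRP6 the furthest from 0 at −0.46.

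Genes of the DOT1L complex and of transcription elongation held MLLT10 as their 1 lower probe of 50 and 0 higher, with a median of 0.00. The MLLT10 paralog MLLT6 gave between −0.24 and −0.07, and MLLT1 and MLLT3, which also bind DOT1L, between −0.19 and 0.00. Of the HOX and MEIS genes, which are DOT1L targets in leukemia, 2 of 27 probes were higher and 3 lower (median −0.02), but 0 of the 16 well above background were.

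Cell growth lists stayed near 0. Replication and mitosis genes (38 probes, median −0.03, CCNE2 the furthest at 0.27) and ribosome biogenesis genes (33 probes, median −0.03, RRS1 the furthest at −0.20) had 0 probes past 1.5-fold. Cholesterol synthesis genes had none either, with a median of 0.08 and 25 of 36 probes above 0, ACACA, the acetyl-CoA carboxylase, being furthest at −0.46, and replication-dependent histone genes (14 probes, median 0.03) had H2BC12 at 0.33. CDK inhibitors and p53 targets (26 probes, median −0.06) had CDKN2B as 1 higher probe, not well above background with si-control. Stress response genes (26 probes, median 0.06) had VLDLR as 1 lower, dim probe. DUSP6, a phosphatase of ERK, was the 1 higher probe of 31 among immediate early and AP-1 genes (0.63, median 0.03), and CCN2, a matrix protein and YAP target, the 1 of 32 among Notch, BMP and YAP genes (0.69, median 0.05).

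**Figure D3:**
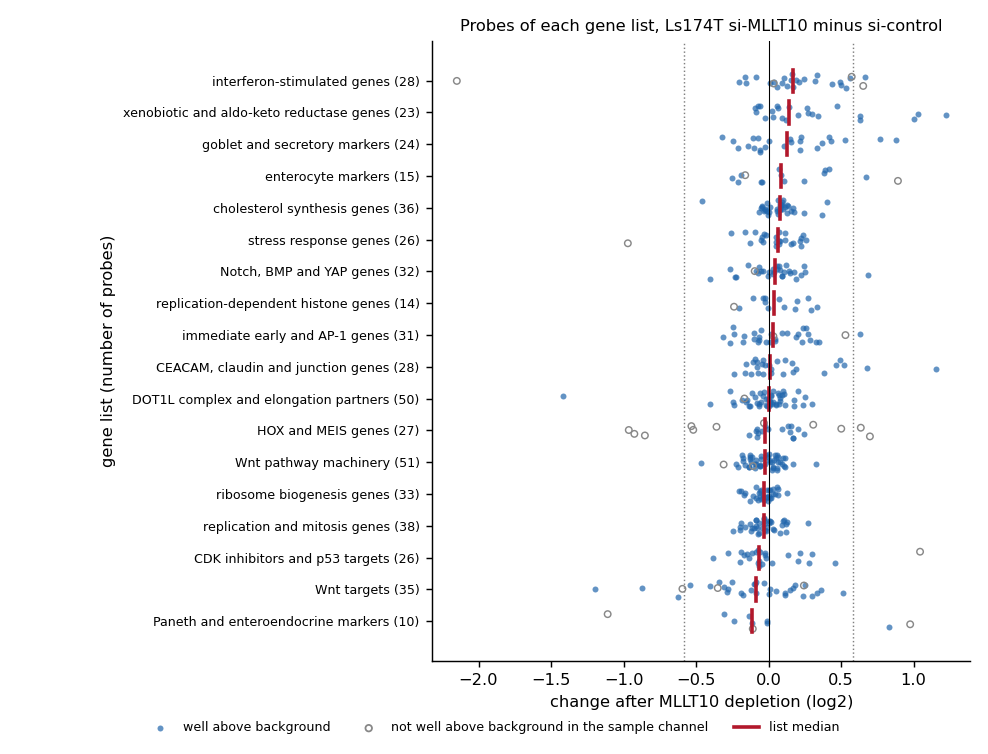
Change after MLLT10 depletion (x axis, log2) of every probe of each gene list (y axis, number of probes in brackets). Filled points were well above background in the sample channel on both arrays, open points were not, red bars are list medians and dotted lines mark 1.5-fold. The medians lie between −0.11 (Paneth and enteroendocrine markers) and 0.17 (interferon-stimulated genes).

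β-Catenin depletion in the same line was compared next. It was measured by a pair of dye-exchanged arrays on another slide, on which si-control RNA itself was the partner. No array is shared with the MLLT10 comparison, but whether the si-control RNA is the same extract is not given in the sources used here. Of 17706 features kept for that pair, 751 (4.24%) were higher and 241 (1.36%) lower past 2-fold.

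The genes that rose after MLLT10 depletion stood higher after β-catenin depletion more often than all features did. A gene dim in si-control RNA could pass the signal filter of the β-catenin pair only where β-catenin depletion raised it, and 93 of the 587 higher and 77 of the 651 lower features passed. The shares were therefore taken first with no filter on that pair, a setting chosen after seeing the data, over the features well above background in the MLLT10 comparison. Of the 147 higher ones, 102 were above 0 (69.4%, against 45.5% of all 24375), 55 were past 2-fold higher (37.4%, against 3.54%) and 5 past 2-fold lower (3.4%, against 1.95%), with a median β-catenin change of 0.50. Of the 107 lower ones, 63 were below 0 (58.9%, against 53.1%) and 8 past 2-fold lower (7.48%, against 1.95%), 0 were past 2-fold higher, and the median was −0.06.

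Over the features well above background on all arrays, 56 higher and 47 lower ones were left. Of the 56, 45 were above 0 (80.4%, against 47.4% of all 16784) and 32 past 2-fold higher (57.1%, against 3.50%), which is 5.45% of the 587 features that β-catenin depletion raised there. Of the 47, 27 were below 0 (57.4%, against 52.6%) and 4 past 2-fold lower (8.51%, against 1.11%), which is 2.14% of 187. Past the folds, both directions of the MLLT10 change thus overlapped with the same direction of the β-catenin change at a share above that of all features. No test of these shares was made.

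The largest shared rises well above background were UGT2B7 (1.30 after MLLT10 and 1.36 after β-catenin depletion), FOXQ1 (1.19 and 1.98), GPRC5A (1.09 and 1.85), AKR1B10 (1.03 and 5.23) and VILL (1.00 and 4.25). The second, brighter probe of FOXQ1 gave −0.06 and 0.32, so its shared rise rests on 1 probe. GCNT3, EMP1 and RFLNA also passed 2-fold after β-catenin depletion but missed the background flag in at least 1 channel of that pair, and their size is not given. CYP3A7, of the same family as CYP3A5, changed by 1.51 after MLLT10 depletion and was not well above background with si-control. Of the 15 named rises, 9 were well above background on the β-catenin pair. Of these, 7 were above 0 and 6 past 2-fold, and ANP32A and ANP32D lay at −0.09 and −0.15. FABP1 gave 0.67 and 5.07.

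The shared falls were 4 genes: CDK6 (−1.01 and −1.37), RGMB (−0.87 and −2.42), SMOC2 (−0.63 and −1.94) and TMEM80, a transmembrane protein (−0.70 and −1.77). The SMOC2 fall after MLLT10 depletion was smaller than its program error (0.95), though it was −1.54 by the sample channel alone. The CDK6 probe gave −0.43 with normexp and loess, short of 1.5-fold. DEFA6 was the 1 gene past the folds in opposite directions among features kept. It missed the background flag in at least 1 channel of the β-catenin pair, and the size of its fall there is not given. Its rise after MLLT10 depletion (0.83) was smaller than its program error (0.86). Whether shared changes follow from the same pathway was not tested.

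**Figure D4:**
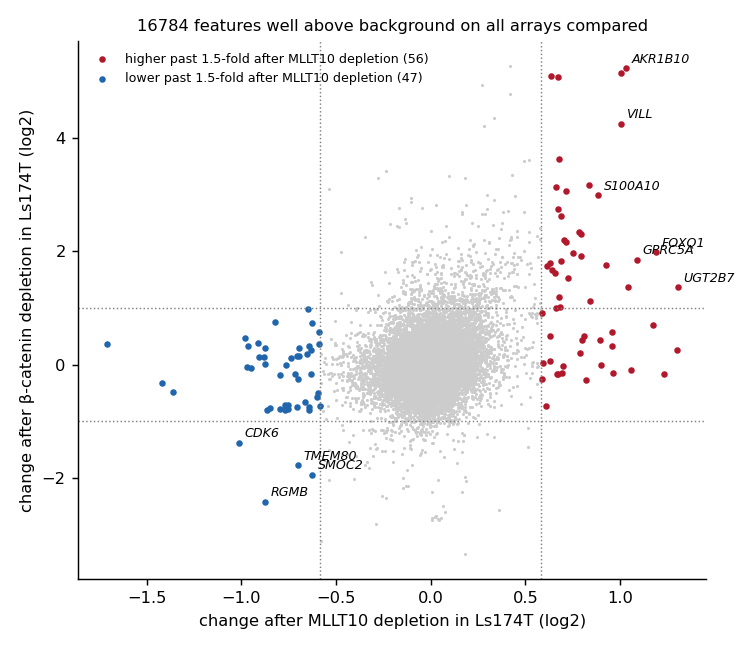
Change after MLLT10 depletion (x axis) against change after β-catenin depletion (y axis), both log2 in Ls174T cells, for 16784 features well above background on all arrays compared. Red points are the 56 features higher and blue points the 47 lower past 1.5-fold after MLLT10 depletion, grey points all others, and dotted lines mark 1.5-fold (vertical) and 2-fold (horizontal). Of the red points, 32 lie above the upper horizontal line, and of the blue points 4 lie below the lower one.

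The same siRNA pool was used in HEK293T cells, a human embryonic kidney line, given Wnt3A for 9 h. No array is shared with the Ls174T pair, and there the si-control array lay on another slide than the si-MLLT10 array, so that slide and siRNA cannot be told apart. Of 28282 features, 956 (3.38%) were higher and 1145 (4.05%) lower past 1.5-fold.

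MLLT10 was lower in both lines, and the other shared changes were few in number. Over 23281 features well above background on all 4 arrays, 7 of the 109 higher in Ls174T cells were also higher in HEK293T cells (6.42%, against 2.11% of all features, or 1.43% of 491). Of the 96 lower, 10 were also lower (10.4%, against 1.39%, or 3.10% of 323). The 10 include MLLT10 itself, whose fall in both lines was set by the shared siRNA pool. In opposite directions, 5 of the 109 were lower (4.59%, against 1.39%) and 8 of the 96 higher in HEK293T cells (8.33%, against 2.11%), so that the opposite direction also held a share above that of all features. The changes correlated across these features with a Pearson r of 0.10 and a Spearman ρ of 0.14, a description over features that share the reference RNA. Of the 109 higher features, 53 were above 0 in HEK293T cells (48.6%, against 50.3% of all), and of the 96 lower, 50 were below 0 (52.1%, against 49.7%).

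Besides MLLT10 (−1.42 and −1.76), the genes with a probe lower in both lines and well above background were PDLIM5 (−0.98 and −0.93), FXYD2, a regulator of the sodium pump (−0.78 and −0.71), and CDK6 at its brighter probe (−0.74 and −0.70). The other probes of PDLIM5 gave between −0.13 and 0.13 in HEK293T cells, so its shared fall rests on 1 probe. The dimmer probe of CDK6 gave −0.19 there. Genes with a probe higher in both lines were MCAT, MAOB, PKD2, KIAA0319L and CCSAP. MAOB, a mitochondrial amine oxidase, gave 0.79 and 0.72, with 253 and 429 units in Ls174T cells. MCAT, of mitochondrial fatty acid synthesis, gave 0.82 by the ratio, but its sample channel was level at 1551 and 1524 units, the difference lying in the reference channel. With dim features included, the shared changes were 38 higher and 109 lower features, and 106 and 46 in opposite directions. Their largest members CCR7, KCNK12, PLA2G12B, CFI and PLPP7 (higher) and HBBP1, ZNF595, MX2 and ZNF785 (lower) were not well above background on both Ls174T arrays.

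Most named Ls174T genes did not follow in HEK293T cells. Of the 15 rises, 6 were above 0 there, with a median of −0.17, and 2 were past 1.5-fold lower (RFLNA at −0.67 and UGT2B11 at −0.87, neither well above background on both HEK293T arrays). CYP3A5 and GPRC5A among the rises and SOHLH2 among the falls also missed that flag. Program errors of the rises in HEK293T cells ran from 0.31 (VILL) to 0.81 (EMP1), so several of these values are weakly measured. Of the 15 falls, 8 were below 0, MLLT10 and PDLIM5 were past 1.5-fold lower and SMG1 was higher (0.59). Depletion of DOT1L in HEK293T cells, which shares its si-control array with the HEK293T MLLT10 comparison, gave the 15 rises a median of −0.15 with 6 above 0. The 15 falls had a median of 0.13 there, with 12 above 0 and 3 below.

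**Figure D5:**
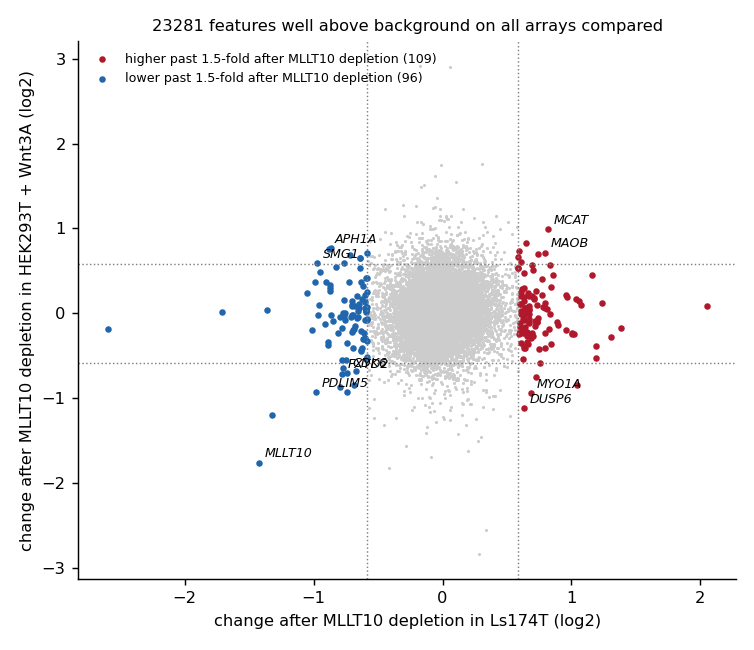
Change after MLLT10 depletion in Ls174T cells (x axis) against that in Wnt3A-treated HEK293T cells (y axis), both log2, for 23281 features well above background on all 4 arrays. Red points are the 109 features higher and blue points the 96 lower past 1.5-fold in Ls174T cells, grey points all others, and dotted lines mark 1.5-fold. Of the red points, 7 lie above the upper line, and of the blue points 10, MLLT10 included, lie below the lower one.

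BRG1 and p300 depletion in Ls174T cells used the same si-control array, so their values are given beside those of MLLT10 with no comparison. The si-BRG1 and si-p300 arrays lay on another slide than that si-control array, so that slide and siRNA cannot be told apart. GCNT3, at 1.38 after MLLT10 depletion, gave −1.19 after BRG1 and −2.45 after p300 depletion, and AKR1B10, at 1.03, gave −1.25 and −2.03. CYP3A5 (1.22) gave −0.49 and −2.85, ANXA1 (0.96) gave −0.44 and −2.11, and UGT2B11 (0.93) gave 1.82 and 0.34. Some other rises stayed within 1.5-fold in both, among them FOXQ1 (0.27 and −0.29), RCSD1 (−0.03 and 0.22) and ODAM (0.03 and −0.28). Among the falls, RGMB (−0.87) gave −0.81 and −1.24, and PDPN (−0.89) gave −1.73 and −1.43. The second, brighter probe of RGMB gave 0.24 after BRG1 and 0.23 after p300 depletion, so its probes disagree there.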

How the data were processed

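RNA of 1 si-control and 1 si-MLLT10 culture of Ls174T cells was measured on Agilent 4x44K dual-color arrays of 45015 features (43376 not control spots), and 15 nM siRNA and 72 h are the labels' values. The authors scanned the arrays and extracted them with the Agilent Feature Extraction program (version 10.5.1.1 per the file headers, 8.5.1.1 in the submitters' processing notes). The deposited intensities are median signal, local background and processed signal per channel, the last background-subtracted and dye-normalized within the array by the program. Each deposited log10 ratio sets processed Cy5 against processed Cy3 signal and carries the program's error. The deposited value table holds the same log10 ratios (largest difference 0, column medians 0) and was used as an alternative.

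From these, log10 ratios were converted to log2, turned to sample over reference, and the si-control array was subtracted. Control spots and outlier flags were left out, and features were kept where the median signal passed 2 times the local background in either channel on both arrays. Errors of the 2 arrays were combined as the root of the sum of squares. Calls are changes past 1.5-fold, with 2-fold beside them. Features are counted singly, and spots of a probe were averaged for genes and lists. A RefSeq table named 27612 of the 29084 features that carry a RefSeq accession, and 127 further features through the study's supplementary gene tables. Named genes are the siRNA targets, the 15 largest rises and falls well above background in both channels and past 1.5-fold by ratio and by sample channel, up to 4 list members past 1.5-fold (otherwise the furthest from 0), and the 5 largest shared changes per direction with the HEK293T and β-catenin comparisons. Members and lists were chosen with earlier results of these data known. Promoter windows and coordinates are from RefSeq (GRCh38.p14).

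Precision is limited by 1 array per group. No feature was saturated (0 on both arrays), and the median sample signal was 2.27 (si-control) and 2.30 (si-MLLT10) times the local background. Alternatives were normexp with an offset of 50 and loess, the value table, the sample channel scaled to its 75th percentile, median centring, other signal filters, outlier flags kept, and 2-fold, with 3 more chosen after seeing the data (both channels well above background, features in place of probes, and no filter on the β-catenin pair). Scripts were tested on simulated data and used Python 3.11.15, pandas 2.3.3, numpy 2.4.6, R 4.3.3 and limma 3.58.1.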

Additional observations from a re-analysis of the deposited data

Results flagged for a closer look

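A group of 7 genes well above background moved past 1.5-fold in opposite directions after MLLT10 depletion in Ls174T and in HEK293T cells. Each line has 1 array per group, so the differences were not tested. Given as HEK293T minus Ls174T change, they were −1.47 for MACROD2 (0.73 in Ls174T and −0.74 in HEK293T cells), −1.62 for MYO1A, a brush border myosin (0.69 and −0.94), −1.75 for DUSP6 (0.63 and −1.12), −1.34 for PLB1, a phospholipase of the gut (0.75 and −0.59), 1.64 for APH1A (−0.88 and 0.76), 1.29 for CBX1, a heterochromatin protein (−0.64 and 0.65), and 1.57 for SMG1 (−0.97 and 0.59). The second, brighter probe of APH1A gave −0.91 in Ls174T and 0.38 in HEK293T cells, short of 1.5-fold there. Among other probes of CBX1, the values in Ls174T cells were −0.59 and −0.02, and those of SMG1 lay between −0.38 and 0.07.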

How the results depend on the processing

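No paired analysis was possible because each group is 1 array. The MLLT10 change kept its direction and stayed past 1.5-fold under all 9 alternatives, from −1.29 (normexp and loess) to −1.49 (sample channel alone). Counts did not. Normexp with loess gave 55 higher and 53 lower features, 2 and 5 shared with HEK293T cells and 25 higher with β-catenin depletion, and list medians of 0.11 (Paneth) and 0.16 (histones), with CDH17 turned to −0.075, CHGB to 0.15, LEF1 to 0.032, IFI44L to −0.021 and LAPTM5 to 0.016. The sample channel alone gave 12 shared lower with β-catenin depletion and medians of 0.35 (goblet), −0.0024 (Paneth) and 0.28 (xenobiotic). With both channels over 2 times the background, 75 were higher and 45 lower (6 and 5 shared with HEK293T, 35 higher with β-catenin). With the sample channel well above background, 161 and 114 (8 and 10 shared), and with both channels so, 147 and 107 (7 and 10), with HEK293T markers at −0.13 and endothelium at −0.20 in both. Without a filter, 3234 and 2698 (511 and 559 shared), leukocyte 0.26. At 2-fold, 206 and 269. Without a filter on the β-catenin pair, 55 higher and 8 lower features were shared with it, in place of 32 and 4. With features in place of probes, medians were −0.14 (enterocyte), −0.024 (colon), −0.23 (leukocyte) and 0.17 (endothelium). Of 822 values of named genes, 773 kept within the program error, 44 moved and 5 turned, and of 229 list medians 215 kept and 14 moved. Most settings changed only the filter or shifted all values alike, so that a gene value kept there was mostly fixed in advance. All 5 turned values came with normexp and loess. Of 99 named probes past 1.5-fold, 38 stayed so with normexp, 92 with the sample channel alone and 99 with the value table, which is identical. The causes were not tested.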

Other observations

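TERT, the catalytic subunit of telomerase, was the 1 probe printed in at least 5 usable spots that passed 1.5-fold while well above background. It went from −0.40 to −1.16, a change of −0.75 (program error 0.31), with an SD of 0.08 over its 10 spots and Cy3 signals of 680 and 384 units. After β-catenin depletion it gave −0.77. The genes in these paragraphs, TERT included, were chosen after their values were seen. SLPI, a protease inhibitor of mucosal secretions, and DEFB1, an epithelial defensin, gave 0.79 and 0.75 after MLLT10 depletion, with 297 and 494 units for SLPI and 102 and 188 units for DEFB1.

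Further genes higher after both MLLT10 and β-catenin depletion, well above background on all arrays, were S100A10, an annexin partner (0.89, from 3323 to 5827 units), MGLL, a monoglyceride lipase (0.78, from 1783 to 2980 units), CASP1, the inflammasome protease (0.71, from 234 to 378 units), and IL33, an epithelial alarmin (0.68, from 726 to 1282 units). No explanation was tested.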
